A study of Sus scrofa with 12 samples.

Results

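The genes described here are the ligands, receptors and SMAD proteins of transforming growth factor beta (TGF-beta) signalling, TGFB1, TGFB2, TGFB3, TGFBR1, TGFBR2, SMAD2, SMAD3, SMAD4 and SMAD7. A probe set, the group of short probes that reads 1 transcript on an Affymetrix array, was taken where the platform's annotation gave it 1 of these symbols and no other. Of the 24123 probe sets on the array, 13 met this rule, and they covered 6 of the 9 genes. They were 2 for TGFB1, 4 for TGFB2, 2 for TGFB3, 3 for TGFBR1, 1 for SMAD3 and 1 for SMAD4. Where a gene had several, they are numbered here by mean signal over the 12 arrays, brightest first, and the plot of all signals gives their identifiers. TGFBR2, SMAD2 and SMAD7 were not analysed here, since no probe set carried one of those symbols alone. After the dimmest probe sets were set aside, 9 of the 13 were among the 16799 that were tested.

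RNA was measured in stented coronary artery tissue of Yorkshire farm pigs, collected 28 days after angioplasty and stenting, and the title of the series calls the stents overlapping. The sirolimus-eluting stent (SES) and the zotarolimus-eluting stent (ZES) release inhibitors of the mTOR kinase, and the bare metal stent (BMS) releases no drug. Each stent type was represented by 4 segments from 2 pigs, 12 arrays from 6 pigs in all, and the sources used here give neither the drug doses nor the age of the pigs. Arrays are named by stent type and number, and numbers 1 and 2 came from one pig and numbers 3 and 4 from the other. In 5 pigs the segments were from the left anterior descending artery (LAD) and the right coronary artery (RCA), and SES 1 came from a left circumflex artery. All pigs carried a stent, so the BMS segments were injured vessel and not healthy vessel. With only 2 pigs for a stent type, segments of the same animal supply much of the spread behind each p-value, and in bulk tissue fewer cells of a type and less RNA per cell cannot be told apart.

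TGF-beta ligands are made as latent complexes that are held in the extracellular matrix and released by proteases, integrins and thrombospondin. The active dimer binds the type II receptor TGFBR2, which recruits and phosphorylates the type I receptor TGFBR1, and TGFBR1 phosphorylates SMAD2 and SMAD3. These pair with SMAD4, move to the nucleus and act on genes of matrix, contractile filaments and growth arrest, while SMAD7 is an inhibitor of the receptor. In an injured artery the pathway is known for matrix deposition by smooth muscle cells and fibroblasts and for restraint of T cells.

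The deposited values were log2 signals, in which a difference of 1 is a doubling. Levels of different probe sets were not set against each other, because each has its own brightness. The background level was set on each array at the 95th percentile of 59 control probe sets, which were taken by their names to have no target in the sample. This level lay between 4.15 and 5.96. Between 61.0% and 74.5% of the probe sets were above it. The mean background was 4.72 ± 0.54 in SES, 4.72 ± 0.41 in ZES and 5.51 ± 0.31 in BMS segments (SD, n = 4 each). The number of probe sets listed at 0 averaged 656 ± 254 in SES, 725 ± 311 in ZES and 172 ± 126 in BMS segments. Spike-in control signal averaged 15.09 ± 0.42, 15.30 ± 0.58 and 16.31 ± 0.38 in SES, ZES and BMS segments. The 3′ minus 5′ difference of the GAPDH control probe sets, a measure of RNA integrity that is larger where the 5′ end is read less, averaged 2.71 ± 0.35 in SES, 3.66 ± 0.19 in ZES and 4.16 ± 0.50 in BMS segments. Its exact two-sided permutation p was 0.0286 both for SES against BMS and for ZES against SES, which is the lowest that 4 against 4 allows when the segments of a pig are exchanged as if independent, and 0.0571 after adjustment over 12 such tests. The p and its adjusted value were the same for probe sets listed at 0, for SES and for ZES against BMS. They were also the same for spike-in signal of SES against BMS and background of ZES against BMS. The GAPDH difference ran from 2.33 to 3.02 in SES and from 3.64 to 4.63 in BMS segments. Spike-in signal ran from 14.62 to 15.59 in SES and from 15.74 to 16.53 in BMS segments. Fits with such a measure as a covariate are given with the other settings. Without overlap of SES and BMS these fits cannot separate the measure from stent type, so the part of these array differences in the results was not tested. Smooth muscle contractile genes, the defining markers of the vessel's media, were above background on all 12 arrays for 10 of 10 tested genes. Their mean log2 signal was 11.51 ± 1.28 in SES (10.61 to 13.33), 13.42 ± 1.28 in ZES (11.58 to 14.53) and 13.75 ± 0.55 in BMS segments (13.22 to 14.30), and 0 of the 10 passed the test in any stent comparison. Genes of T and NK cells, 5 tested of 11 listed, averaged 7.33 ± 0.14 in SES (7.13 to 7.44), 6.39 ± 0.81 in ZES (5.20 to 6.98) and 5.35 ± 0.56 in BMS segments (4.54 to 5.85). Only 2 or 3 of the 5 were above background on a BMS array, so the BMS mean rests partly on signals not above background. The SES minus BMS difference was positive for 4 of the 5, and −0.13 for CD2 (limma adjusted p = 0.937). Of these 5 genes 1 passed for SES against BMS, CD3E, a signalling subunit beside the T cell receptor, with a log2 difference of 4.90 (limma adjusted p = 0.0172). CD3E was not above background on any BMS array. With the background level in place of its BMS signals, it was at least 4.33-fold higher in SES segments, a bound that was not itself tested. Neutrophil genes averaged 9.75 ± 2.15 in SES, 9.46 ± 2.93 in ZES and 5.90 ± 1.83 in BMS segments. Endothelial genes averaged 7.11 ± 0.48, 7.76 ± 0.31 and 6.24 ± 0.50 in SES, ZES and BMS segments. In any stent comparison 0 of 3 neutrophil and 0 of 7 endothelial genes passed the threshold. Of the 3 neutrophil genes 0 were above background on BMS 1, and 1 on each of BMS 2 and ZES 2. Of the 7 endothelial genes 4 to 6 were above background on a BMS array. Both BMS means thus rest partly on signals not above background. The part of these cell types in the results below was not tested.

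No TGF-beta probe set passed the test in any comparison of stents. For SES against BMS, 0 of the 9 tested probe sets were called, where the background over all probe sets was 0.679%. For ZES against BMS, 0 of 9 were called against a background of 0% by limma, which had 1510 probe sets at an unadjusted p under 0.05. For ZES against SES, 0 of 9 were called against a background of 0.0714%. For any difference among the 3 stent types (F test), 0 of 9 were called against 0.345%, and the members' adjusted p lay between 0.614 and 0.986. In each pair of stent types the values of the groups overlapped for all 9 probe sets, where 8.74%, 3.82% and 6% of all probe sets had groups without overlap for SES against BMS, ZES against BMS and ZES against SES. The comparisons of SES and of ZES with BMS share the same 4 BMS arrays.

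**Figure D1:**
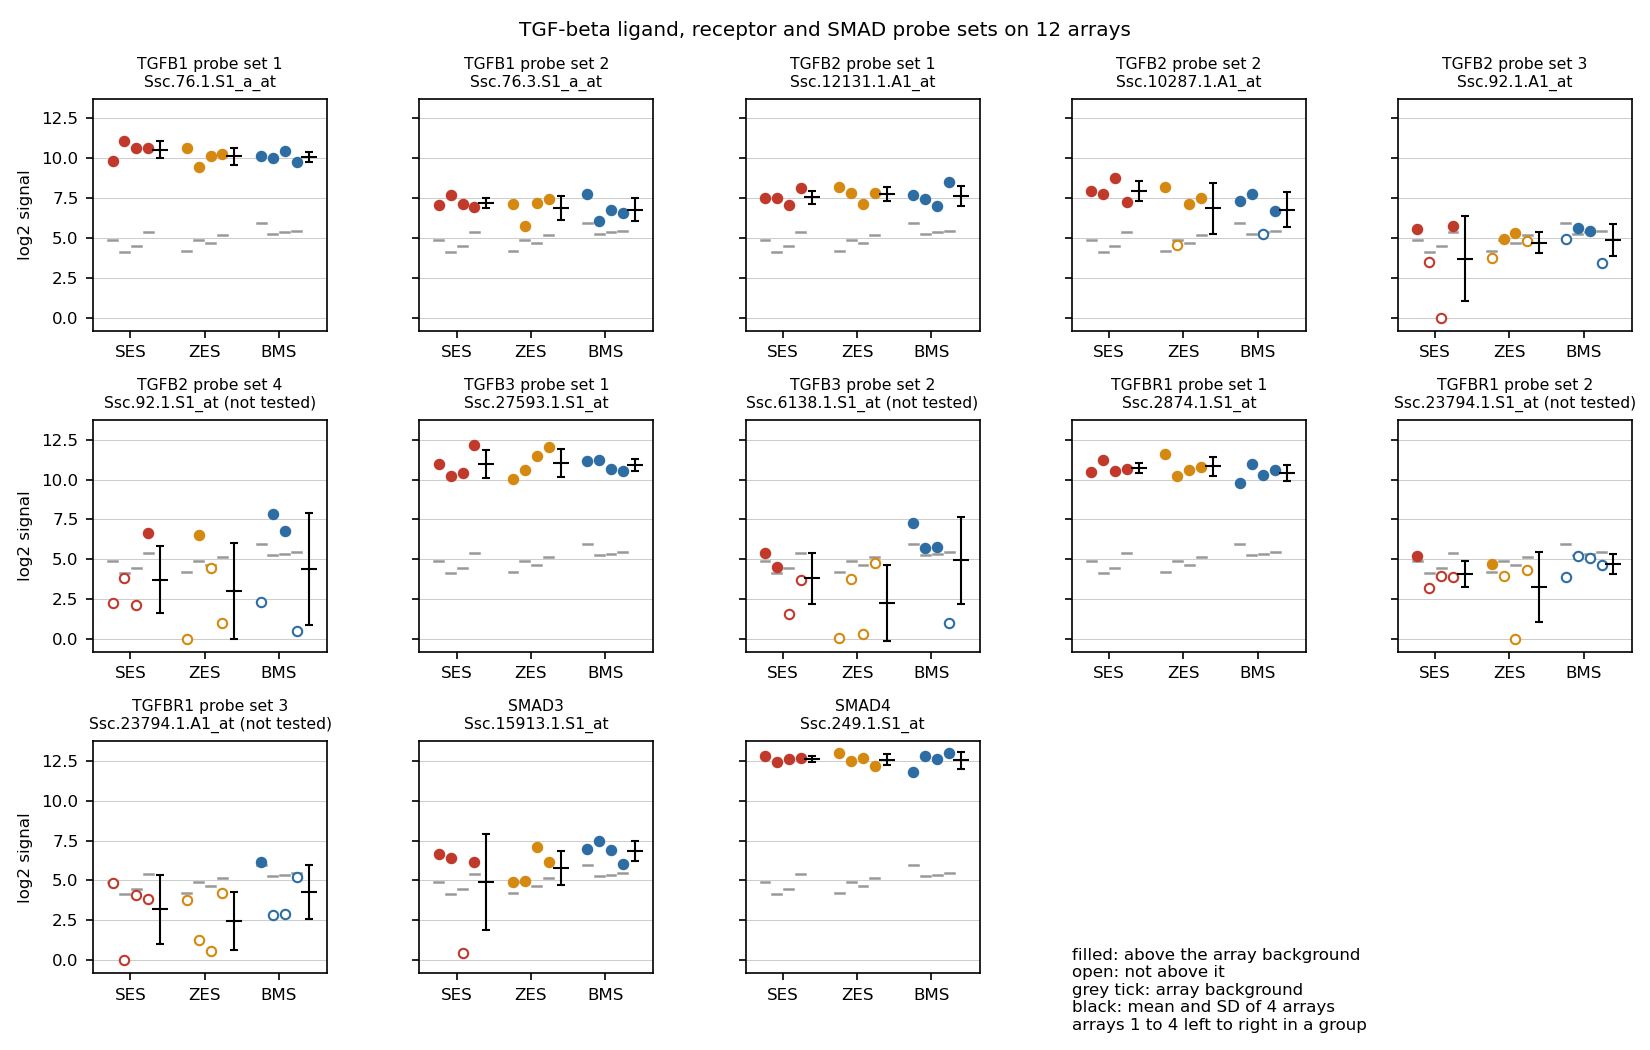
Log2 signal (vertical axis) of each of the 13 probe sets in SES, ZES and BMS segments, with arrays 1 to 4 from left to right in a group, filled where the signal was above the array's background (grey ticks), and the mean and SD in black. The 3 groups overlap in every tested panel, and the value of 0.42 for SMAD3 on SES 3 lies far below the other 3 SES segments.

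TGFB1, the ligand most often linked to scar formation, was read above background on 12 of 12 arrays by both of its probe sets. On probe set 1 its log2 signal was 9.85, 11.10, 10.63 and 10.62 in SES segments 1 to 4, 10.66, 9.43, 10.15 and 10.27 in ZES segments, and 10.13, 10.01, 10.45 and 9.76 in BMS segments. SES 2 was the highest and ZES 2 the lowest of the 12, and all 3 groups overlapped. The means were 10.55 ± 0.52 in SES, 10.13 ± 0.52 in ZES and 10.09 ± 0.29 in BMS segments (SD, n = 4 each). The SES minus BMS difference was 0.46 (95% interval −0.25 to 1.18, limma adjusted p = 0.561), which as a fold is 1.38 with an interval of 0.841 to 2.26. ZES minus BMS was 0.04 (−0.67 to 0.76, adjusted p = 0.979) and ZES minus SES was −0.42 (−1.14 to 0.29, adjusted p = 0.736). In the order SES, ZES, BMS, no neighbouring levels differed beyond their spread. The median gap between the 2 segments of a pig was 0.41, nearly the whole 0.46 between the highest and the lowest stent mean.

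TGFB1 probe set 2 gave the same order of means, with 7.21 ± 0.33 in SES, 6.88 ± 0.76 in ZES and 6.79 ± 0.70 in BMS segments. Its SES minus BMS difference was 0.42 (−0.73 to 1.57, adjusted p = 0.766). ZES 2 was again the lowest array, at 5.75, and the highest was BMS 1, at 7.74. Over the 12 arrays the signals of both TGFB1 probe sets had a Pearson correlation of 0.64 and a Spearman correlation of 0.53, and the Pearson value was 0.25 without the 2 arrays farthest from the median.

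TGFB2, a ligand also known from heart valve and vessel development, had 4 probe sets, of which the brighter pair did not follow each other over the arrays. Only probe set 1 was above background on all 12 arrays. Its signal was 7.49, 7.52, 7.04 and 8.11 in SES segments, 8.18, 7.83, 7.16 and 7.83 in ZES segments, and 7.71, 7.43, 6.98 and 8.49 in BMS segments. BMS 4 held the highest and BMS 3, from the same pig, the lowest of the 12 values. The means of 7.54 ± 0.44 in SES, 7.75 ± 0.42 in ZES and 7.65 ± 0.64 in BMS segments lay within 0.21 of each other. For this probe set SES minus BMS was −0.11 (−1.08 to 0.86, adjusted p = 0.94), ZES minus BMS 0.10 (−0.88 to 1.07, adjusted p = 0.969) and ZES minus SES 0.21 (−0.76 to 1.18, adjusted p = 0.927).

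TGFB2 probe set 2, above background on 10 of 12 arrays, read 7.93, 7.74, 8.76 and 7.26 in SES segments, 8.18, 4.55, 7.14 and 7.53 in ZES segments, and 7.29, 7.78, 5.25 and 6.72 in BMS segments. The 2 values not above background were those of ZES 2 and BMS 3. The SES minus BMS difference was 1.16 (−0.37 to 2.70, adjusted p = 0.485) and ZES minus SES was −1.08 (−2.61 to 0.46, adjusted p = 0.675). Without BMS 3 the SES minus BMS difference was 0.66, and without ZES 2 the ZES minus SES difference was −0.30. Set against probe set 1 over the 12 arrays, its Pearson correlation was −0.03 and its Spearman correlation −0.15.

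The other pair of TGFB2 probe sets was dimmer. Probe set 3 was above background on 6 arrays and was listed at 0 on SES 3, and its SES minus BMS difference of −1.16 (−3.59 to 1.27, adjusted p = 0.689) became 0.07 without SES 3. Probe set 4 was above background on 4 arrays, where it read 6.65 on SES 4, 6.52 on ZES 2, 7.84 on BMS 2 and 6.77 on BMS 3, and it was too dim on average to be tested. In the fit without a filter on low signal its adjusted p lay between 0.844 and 0.943. Over the 12 arrays probe sets 3 and 4 had a Pearson correlation of 0.48 and a Spearman correlation of 0.73, with most of the values not above background. The differences in TGFB2 had opposite signs for SES against BMS on probe sets of the same gene, and none of them passed the test.

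TGFB3, the third ligand, known from rat wounds that healed with less scar when it was given, was above background on 12 of 12 arrays on probe set 1. The signal was 10.99, 10.20, 10.44 and 12.19 in SES segments, 10.04, 10.58, 11.45 and 12.03 in ZES segments, and 11.18, 11.24, 10.68 and 10.55 in BMS segments. SES 4 and ZES 4, both from a LAD, were the highest of the 12, and ZES 1, from an RCA, was the lowest. The mean log2 signal of 5 tested heart muscle genes was 9.24 on SES 4, 8.57 on ZES 4 and 4.90 on ZES 1. On BMS 4, the lowest BMS array for TGFB3, it was 8.70. Only 3 of the 5 genes were above background on ZES 1, and all 5 were on SES 4, ZES 4 and BMS 4. The part of heart muscle tissue in these values was not tested. The means of 10.95 ± 0.89 in SES, 11.03 ± 0.89 in ZES and 10.91 ± 0.35 in BMS segments had a range of 0.11. For TGFB3 SES minus BMS was 0.04 (−0.90 to 0.99, adjusted p = 0.979), ZES minus BMS 0.11 (−0.83 to 1.06, adjusted p = 0.962) and ZES minus SES 0.07 (−0.87 to 1.02, adjusted p = 0.975). Pigs with the same stent differed by more than the stent types did, with a gap of up to 1.43 between pig means of 1 stent type. TGFB3 probe set 2 was above background on 5 arrays, 2 of SES, 0 of ZES and 3 of BMS, and was not tested. In the fit without a filter its adjusted p lay between 0.586 and 0.814.

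TGFBR1, the type I receptor kinase, was above background on 12 of 12 arrays on probe set 1. Its log2 signal was 10.48, 11.20, 10.53 and 10.66 in SES segments, 11.63, 10.25, 10.60 and 10.81 in ZES segments, and 9.80, 11.003, 10.29 and 10.61 in BMS segments. ZES 1 was the highest and BMS 1 the lowest, and the groups overlapped. Means were 10.72 ± 0.33 in SES, 10.82 ± 0.58 in ZES and 10.42 ± 0.51 in BMS segments, and no neighbours in the order ZES, SES, BMS differed beyond their spread. SES minus BMS was 0.29 (−0.43 to 1.02, adjusted p = 0.741), a fold of 1.22 with an interval of 0.742 to 2.02, and it was 0.095 without BMS 1 and 0.13 without SES 2. ZES minus BMS was 0.40 (−0.32 to 1.12, adjusted p = 0.763) and ZES minus SES was 0.11 (−0.62 to 0.83, adjusted p = 0.951).

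TGFBR1 probe sets 2 and 3 were above background on 2 arrays and 1 array. Neither was tested, and in the fit without a filter their adjusted p lay between 0.705 and 0.919. On TGFBR1 probe set 2 the signal was 5.19, 3.21, 3.95 and 3.85 in SES segments, 4.70, 3.91, 0.00 and 4.35 in ZES segments, and 3.85, 5.20, 5.07 and 4.63 in BMS segments. Only SES 1 and ZES 1 were above their array's background there, so this probe set gives no order of the groups.

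SMAD3, which TGFBR1 phosphorylates and which binds DNA at SMAD-responsive genes, had the largest standard deviation within stent types of the 9 tested probe sets. The signal was 6.64, 6.43, 0.42 and 6.17 in SES segments, 4.92, 4.93, 7.07 and 6.17 in ZES segments, and 6.98, 7.46, 6.93 and 6.0 in BMS segments. It was above background on 11 of 12 arrays, and SES 3, far below the other SES segments, was the exception. The means were 4.91 ± 3.00 in SES, 5.77 ± 1.04 in ZES and 6.84 ± 0.61 in BMS segments. Between SES and BMS it differed by −1.93 (−4.25 to 0.40, adjusted p = 0.444), and without SES 3, whose value was not above background, it was −0.43. ZES minus BMS was −1.07 (−3.40 to 1.26, adjusted p = 0.815), with both segments of the pig of ZES 1 and ZES 2 below every BMS segment and ZES 3 above 3 of the 4. ZES minus SES was 0.86 (−1.47 to 3.18, adjusted p = 0.851).

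SMAD4, the SMAD shared by the TGF-beta and bone morphogenetic protein branches, was above background on 12 of 12 arrays and varied least of the 9 probe sets. It read 12.84, 12.40, 12.63 and 12.67 in SES segments, 13.02, 12.51, 12.66 and 12.16 in ZES segments, and 11.79, 12.80, 12.60 and 12.99 in BMS segments. BMS 1 was the lowest of the 12 arrays and ZES 1 the highest. The means were 12.63 ± 0.18 in SES, 12.58 ± 0.36 in ZES and 12.54 ± 0.53 in BMS segments, a range of 0.091 against a median gap of 0.47 between the segments of a pig. SES minus BMS was 0.09 (−0.51 to 0.69, adjusted p = 0.915), a fold of 1.06 with an interval of 0.702 to 1.62. ZES minus BMS was 0.04 (−0.56 to 0.64, adjusted p = 0.976) and ZES minus SES was −0.05 (−0.65 to 0.55, adjusted p = 0.972).

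**Figure D2:**
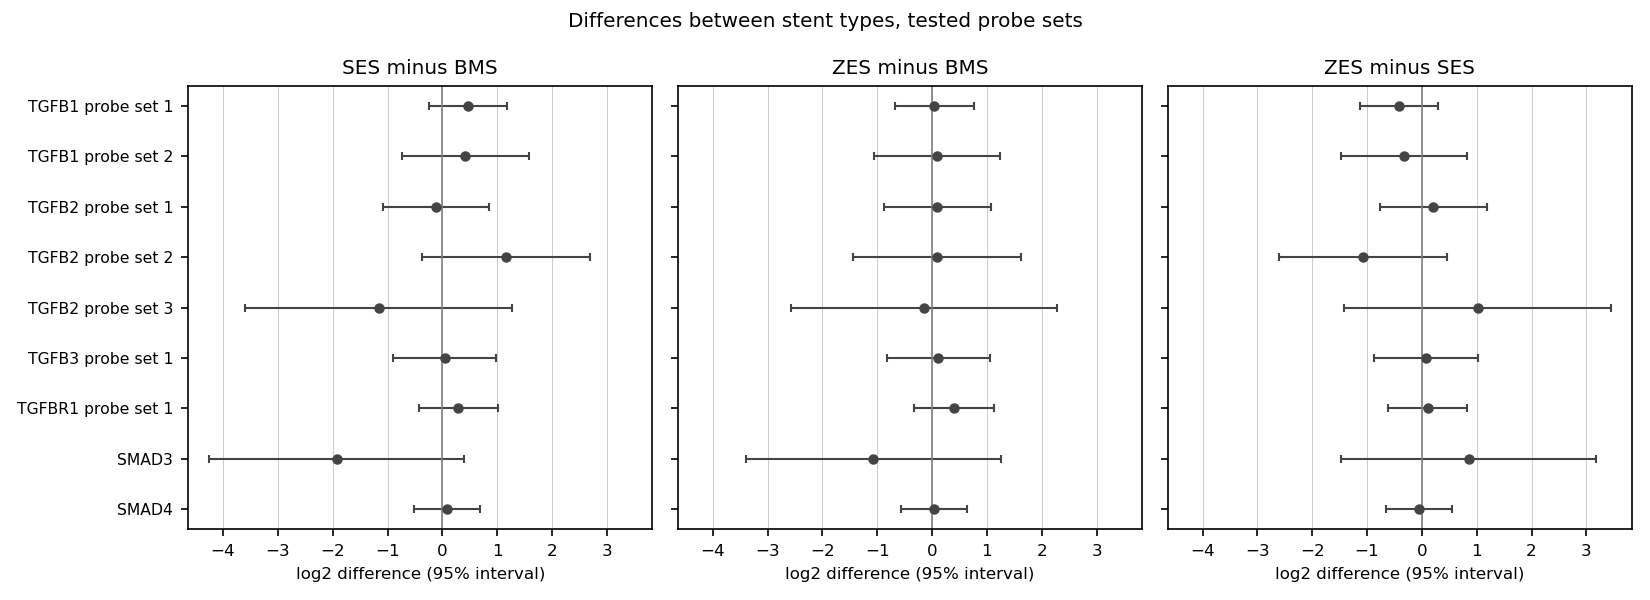
Log2 differences (horizontal axis) with their 95% intervals for the 9 tested probe sets (rows), one panel each for SES minus BMS, ZES minus BMS and ZES minus SES. Every interval includes 0, and SMAD3 and the dimmest tested TGFB2 probe set have the widest intervals.

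The LAD and the RCA were compared within the 5 pigs that had both. No TGF-beta probe set was called (0 of 9), where the background by limma was 0% of all probe sets and 1153 had an unadjusted p under 0.05. TGFB3 was higher in the LAD in 4 of 5 pigs, with LAD minus RCA values of 1.75 in the SES pig, 0.54 and 0.58 in the ZES pigs, and 0.06 and −0.13 in the BMS pigs. Its mean difference was 0.56 (−0.13 to 1.25, adjusted p = 0.746), and the part of heart muscle tissue in it was not tested. TGFB1 was lower in the LAD in 4 of 5 pigs on each of its probe sets, by a mean LAD minus RCA of −0.39 (adjusted p = 0.806) and −0.64 (adjusted p = 0.817). Probe set 1 had −0.002 in the SES pig, −1.24 and 0.12 in the ZES pigs, and −0.12 and −0.69 in the BMS pigs. Probe set 2 had −0.20, then −1.36 and 0.23, then −1.66 and −0.18. The values of −1.24, −1.36 and −1.66 involve ZES 2 and BMS 1, the arrays of high 28S signal. The SMAD4 difference was 0.03 in the SES pig, −0.51 and −0.50 in the ZES pigs, and 1.004 and 0.39 in the BMS pigs. Terms for a difference in artery effect between each pair of stent types gave limma adjusted p values of 0.72 or more for all 9 probe sets. The terms with SES rest on the only SES pig that had both arteries. A difference in artery effect between stent types was not shown.

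**Figure D3:**
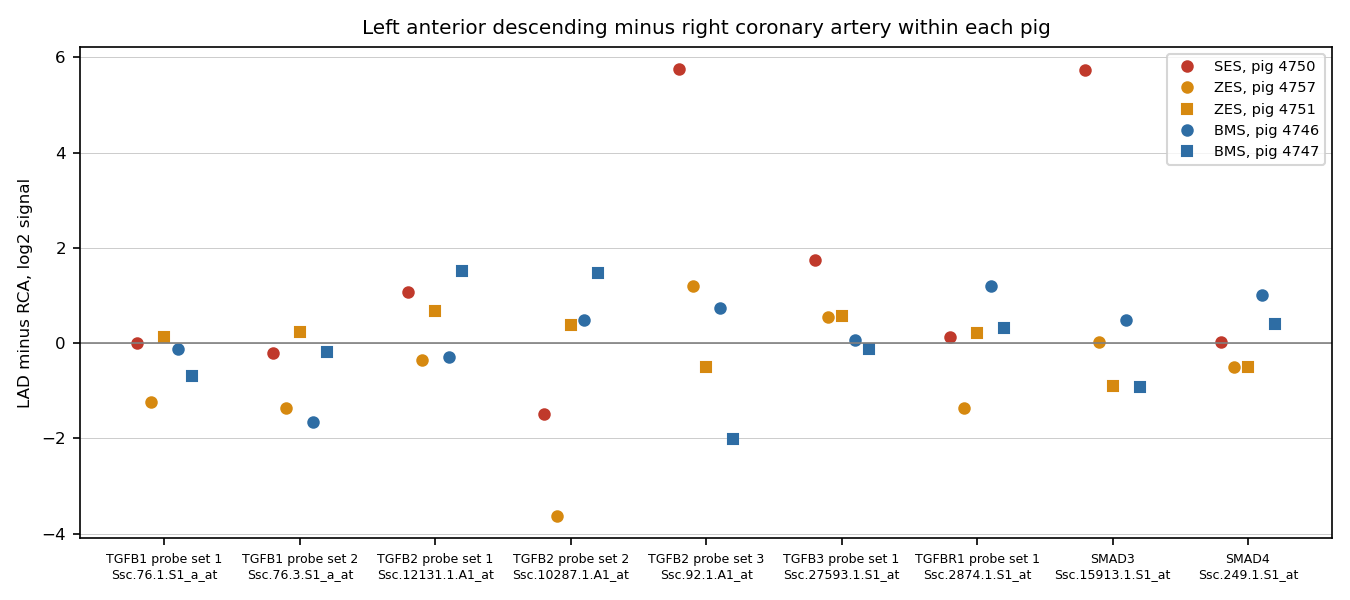
LAD minus RCA log2 signal (vertical axis) of each tested probe set in the 5 pigs with both arteries, coloured by stent type. TGFB3 lies above 0 in 4 of the 5 pigs, and the 2 values above 5, for TGFB2 and SMAD3, are those of the SES pig whose RCA array (SES 3) read 0.00 and 0.42.

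Other genes of the pathway were read from lists of the latent complex, receptors, ligands, SMADs, SMAD partners, inhibitors, non-SMAD signalling and transcriptional targets, with the brightest probe set for each gene. Of 184 listed genes, 79 were tested. For SES against BMS, 2 were higher and 1 was lower past the threshold, 3.8% of the 79 beside 0.898% of all 5793 genes tested by symbol. The lists were chosen with earlier results of these data known, so these shares are a description and not a test of the pathway. The median SES minus BMS difference of the 79 was −0.07 and that of all genes was −0.006, and 37 of the 79 were positive. For ZES against BMS 0 of 79 passed by limma, with a median of −0.11 beside 0.012 for all genes, and for ZES against SES 0 of 79 passed, with a median of −0.09 beside 0.010.

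The 3 genes that passed were FOS, TIMP1 and COL4A2. Over all probe sets the 114 calls of SES against BMS became 64 on means per pig, and 0 with the spike-in or with the GAPDH measure as a covariate. Neither measure overlapped between SES and BMS segments, so the fits with a covariate cannot separate it from stent type. FOS, a subunit of the AP-1 factor that joins SMADs on DNA, rose in SES segments. It read 11.15, 12.36, 10.71 and 9.49 in SES segments, 9.45, 6.35, 9.22 and 7.44 in ZES segments, and 6.37, 6.77, 4.18 and 7.85 in BMS segments, of which BMS 3 was not above background. FOS had an SES minus BMS difference of 4.64 (adjusted p = 0.0167), with no overlap of the groups, and ZES minus BMS was 1.82 (adjusted p = 0.508). FOS is also induced by many other stimuli, handling of the tissue among them. The FOS call ended in 7 of 31 other settings while the difference stayed between 3.35 and 5.90. Among them were the spike-in covariate (3.35, adjusted p = 0.768), the GAPDH covariate (5.90, adjusted p = 0.683) and the fits without SES 1 (4.52, 0.0661), SES 2 (4.14, 0.0585) or SES 3 (4.71, 0.0968).

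TIMP1, an inhibitor of matrix metalloproteinases and a target of TGF-beta, rose in SES segments. Its signal was 13.91, 14.45, 13.97 and 14.43 in SES segments, 14.45, 12.999, 13.62 and 13.37 in ZES segments, and 12.63, 13.15, 12.52 and 12.76 in BMS segments. TIMP1 had an SES minus BMS difference of 1.43 ± 0.29 (SE, adjusted p = 0.0336), and every SES segment was above every BMS segment. The TIMP1 call ended on means per pig (adjusted p = 0.0695), with the spike-in covariate (0.89, adjusted p = 0.818) and with the GAPDH covariate (1.53, adjusted p = 0.763). In all it ended in 14 of 31 other settings, among them those without BMS 1 (adjusted p = 0.0779), BMS 3 (0.0798), SES 1 (0.0813), SES 2 (0.102) or SES 3 (0.138). COL4A2, a chain of basement membrane collagen, fell in SES segments. It read 8.998, 8.93, 9.22 and 11.48 in SES segments, 11.14, 12.17, 11.16 and 11.41 in ZES segments, and 11.72, 11.73, 11.85 and 11.50 in BMS segments, so that SES 4 lay beside the BMS values. SES minus BMS was −2.04 ± 0.45 (adjusted p = 0.0471), and that call held in 9 of 31 other settings. It ended with no pig block (adjusted p = 0.0569), on means per pig (0.0723), with the spike-in covariate (−1.37, adjusted p = 0.827) and with the GAPDH covariate (−1.72, adjusted p = 0.817). The COL4A2 call also ended without any 1 of the BMS arrays (adjusted p = 0.0562 to 0.0939) and without SES 1 (0.143), SES 2 (0.163) or SES 3 (0.21). It ended too without ZES 1, ZES 2 or ZES 3 (0.0528 to 0.0594). Without the pig of SES 1 and SES 2, which leaves 1 SES pig, all 3 calls ended. The differences were then 3.81 for FOS, 1.44 for TIMP1 and −1.35 for COL4A2. Without the pig of SES 3 and SES 4, of these 3 calls only that of TIMP1 ended (1.42).

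Among the 28 targets tested, TIMP1 was the gene that rose and COL4A2 the gene that fell for SES against BMS, 13 differences were positive, and the median was −0.12. Matrix genes that TGF-beta is known to induce lay on both sides of 0 without passing. FN1, which encodes fibronectin, read 14.54, 14.96, 14.62 and 14.39 in SES segments and 12.54, 12.93, 13.29 and 13.63 in BMS segments, a difference of 1.53 (adjusted p = 0.0825), while a second, dimmer FN1 probe set had one of −0.81 (adjusted p = 0.607). POSTN, which encodes periostin, had a difference of 1.43 (adjusted p = 0.225) and CDH11, a cadherin of mesenchymal cells, one of 1.48 (adjusted p = 0.0794). SPARC, a collagen-binding matricellular protein, had a difference of −1.14 (adjusted p = 0.0697), and COL1A2, a chain of type I collagen, one of −1.86 (adjusted p = 0.18).

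Contractile targets had negative SES minus BMS values that did not pass either. CNN1, which encodes calponin, read 7.68, 8.42, 9.37 and 11.86 in SES segments, 10.04, 14.08, 12.19 and 12.81 in ZES segments, and 13.04, 13.51, 11.91 and 11.45 in BMS segments. Its SES minus BMS difference was −3.15 (adjusted p = 0.0804). TAGLN differed by −2.16 (adjusted p = 0.109) and ACTA2, smooth muscle actin, by −1.52 (adjusted p = 0.11). These genes are members of the smooth muscle marker list described above, so its mean level is no separate measure, and the part of cell composition in these values was not tested. SES 4 was the highest SES segment for COL4A2, CNN1, TAGLN and ACTA2, and also for the mean of the heart muscle genes, at 9.24. For ZES against BMS, the smallest adjusted p among the targets was 0.424, for SPARC, with a difference of −0.81.

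**Figure D4:**
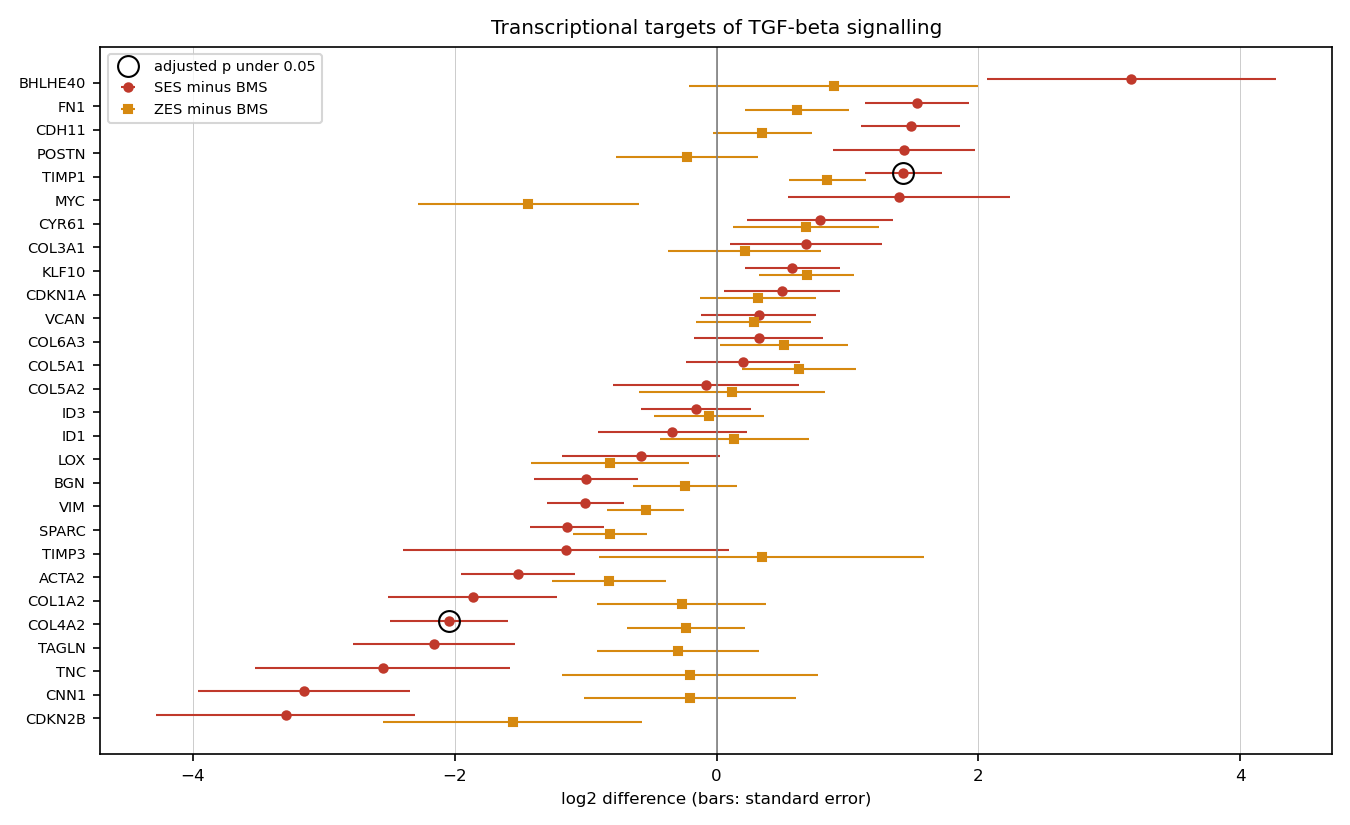
Log2 differences with standard errors (horizontal axis) of 28 transcriptional targets of TGF-beta signalling (rows), for SES minus BMS in red and ZES minus BMS in orange. The 2 circled points, TIMP1 at 1.43 and COL4A2 at −2.04, passed the threshold for SES minus BMS, and no ZES minus BMS point did.

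Genes around the ligands and receptors did not pass in any stent comparison. In the latent complex and its activators, 0 of 11 tested genes passed for SES against BMS, with a median of −0.002. The smallest adjusted p was that of ITGB5, an integrin chain, at −1.14 (adjusted p = 0.169). THBS1, which encodes the activator thrombospondin 1, read 12.34, 12.22, 11.58 and 12.83 in SES segments, 11.82, 10.23, 12.90 and 11.78 in ZES segments, and 11.51, 11.92, 10.76 and 13.14 in BMS segments, and its SES minus BMS difference was 0.41 (adjusted p = 0.753), with values between −0.96 and 1.18 on its 4 dimmer tested probe sets. LTBP1, LTBP2 and LTBP4, the proteins that bind latent TGF-beta, were not analysed here. Of the co-receptors and other receptors 0 of 6 passed, with ENG, the endothelial co-receptor endoglin, at 0.38 (adjusted p = 0.74) and the activin receptor ACVR1B at 1.66 (adjusted p = 0.217). TGFBR3, the co-receptor betaglycan, was too dim to be tested.

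Of the other ligands of the superfamily 0 of 6 passed for SES against BMS. BMP4, a bone morphogenetic protein, read 6.92, 6.52, 7.20 and 9.12 in SES segments, 6.77, 7.86, 8.89 and 8.49 in ZES segments, and 9.77, 8.52, 8.73 and 9.58 in BMS segments. Its SES minus BMS difference was −1.71 (adjusted p = 0.173), and SES 4 lay within the BMS range. SMAD1, a SMAD of the bone morphogenetic protein branch, read 6.68, 6.73, 7.57 and 6.79 in SES segments, 6.0, 8.14, 5.77 and 5.88 in ZES segments, and 6.12, 5.80, 6.72 and 5.95 in BMS segments, a difference of 0.80 (adjusted p = 0.582). Of the SMAD partners, MYOCD, a coactivator of smooth muscle genes, had an SES minus BMS difference of −3.22 (adjusted p = 0.171). MYOCD was above background on 10 arrays. It ran from 0.13 to 6.32 in SES segments (mean 3.28 ± 2.92) and from 6.02 to 6.90 in BMS segments. The SES mean of MYOCD, and so its difference, rests partly on signal not above background. JUN, the partner of FOS in AP-1, had an SES minus BMS difference of −0.27 (adjusted p = 0.836).

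Of the inhibitors, 0 of 10 passed for SES against BMS, and their median difference was −0.27. FKBP1A binds TGFBR1 and holds it inactive, and it is also the immunophilin that sirolimus and zotarolimus bind. It read 13.26, 13.04, 13.12 and 12.44 in SES segments, 11.98, 12.09, 12.61 and 12.57 in ZES segments, and 11.99, 12.24, 12.63 and 12.50 in BMS segments, with an SES minus BMS difference of 0.63 (adjusted p = 0.291). FSTL3, which binds activins, differed by −1.29 (adjusted p = 0.241), BGN, a proteoglycan that binds TGF-beta, by −1.0 (adjusted p = 0.25) and BAMBI, a decoy receptor, by −0.64 (adjusted p = 0.709). Among 12 genes of non-SMAD signalling 0 passed, and the lowest adjusted p for SES against BMS was that of MAPK8, a stress kinase, at −1.67 (adjusted p = 0.419), against 0.94 (adjusted p = 0.777) on its other tested probe set. SMAD5, SMAD6, SKIL, CTGF and TGFBI were not analysed here.

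The genes whose signal was most like that of each member over the 12 arrays were ranked by Pearson correlation among 5792 genes, as a description. The points share arrays and pigs, so depth and tissue make-up are shared too. TGFB1 was most like NCBP2, a subunit of the nuclear cap-binding complex, at 0.91, and this was 0.83 without the 2 farthest arrays. CKB (0.83, and 0.59 without them) and NANS (0.80) followed. TGFB2 probe set 1 was most like SEPT6, a septin, at 0.90, then FKBP10 (0.82) and VPS16 (0.78).

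TGFB3 was most like SBDS, a ribosome maturation factor, at 0.86, then MAZ and CDK11B, both at 0.83, which became 0.75, 0.57 and 0.65 without the 2 farthest arrays. TGFBR1 was most like SDC1, a heparan sulfate proteoglycan of the cell surface, at 0.89, then PIP5K1A (0.85) and DPY19L1 (0.84), which became 0.79, 0.75 and 0.60. SMAD4 was most like TYW3 (0.90), RFX1 (0.89) and LOC100520452 (0.88), which became 0.62, 0.67 and 0.61. SMAD3 was most like POPDC3, at 0.94, and at 0.81 without the 2 arrays farthest from the median. However, POPDC3 was above background on only 6 of 12 arrays and read 0.73, not above background, on SES 3. The next genes for SMAD3 were KIF5C at 0.89 and HSPA12A at 0.88. Without the same 2 arrays these fell away to 0.16 and 0.24, so the relations with KIF5C and HSPA12A rest on those arrays.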

How the data were processed

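Tissue was taken off the stent by manual dissection and RNA was isolated with RNeasy kits, per the labels' protocols. The deposited values are log2 signals, for which the submitters' processing notes name Affymetrix Expression Console 5.0 and MAS5. The sources used here give no scaling target, no treatment of low signals and no detection calls. Small signals are listed close to 0, so dim values spread widely on the log2 scale. Control probe sets (124) and the dimmest 30% of the rest by mean signal were removed, leaving 16799. The stent model was fitted with limma 3.58.1 (R 4.3.3, statmod 1.5.0) to all 12 arrays, with a variance trend and with pig as a random block (consensus correlation −0.032, so the block makes tests more liberal). Two-sided p-values were adjusted by Benjamini-Hochberg over all tested probe sets and called at a threshold of 0.05. The artery comparison had pig as a fixed block. The procedure was also run on simulated data with independent noise, without an effect of pig and without a floor at 0. That run therefore does not measure its error rates or its power in these data. Precision is limited by the number of arrays and of pigs.

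The rule for named genes took every member probe set, pathway genes past the threshold, up to 4 genes a list with the smallest adjusted p, from which examples are given, a fixed panel, and the 3 genes most like each member. The members and lists were chosen with earlier results of these data known. Alternatives were other filters, blocks, normalizations, covariates, weights and left-out arrays or pigs.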

Additional observations from a re-analysis of the deposited data

Results flagged for a closer look

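Among 39 groups of 4 arrays examined, 1 array stood far from the other 3 in 2 of them, by a rule that chance meets in about 1 group in 20. SMAD3 read 0.42 on SES 3, and 6.17 to 6.64 on the other SES arrays. TGFBR1 probe set 2, which was too dim to be tested, was listed at 0 on ZES 3, and read 3.91 to 4.70 on the other ZES arrays.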

How the results depend on the processing

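The count of TGF-beta probe sets called was 0 in all 31 other settings of each stent comparison, 30 of the F test and 8 of the artery comparison. Of 837 member differences recomputed, 90 had the other sign and 0 an adjusted p under 0.05, the lowest adjusted p being 0.288. Every interval of a member's difference included 0, so the signs are not fixed by these data, and the cause of each turn was not tested. The differences that turned were the following log2 values. With the GAPDH 3′ minus 5′ difference as a covariate, SES minus BMS had TGFB2 probe set 1 at 1.22 and TGFBR1 probe set 1 at −0.077. There ZES minus BMS had TGFB1 probe set 1 at −0.10 and TGFB2 probe set 3 at 0.021. In that setting ZES minus SES had TGFB2 probe set 1 at −0.67 and TGFB3 probe set 1 at −0.26. With spike-in signal as a covariate, SES minus BMS had TGFB2 probe set 3 at 0.15, TGFBR1 probe set 1 at −0.44 and SMAD4 at −0.26. There ZES minus BMS had TGFB1 probe set 1 at −0.17, TGFB2 probe set 2 at −0.38, TGFB2 probe set 3 at 0.94, TGFBR1 probe set 1 at −0.21 and SMAD4 at −0.25. In that setting ZES minus SES had TGFB3 probe set 1 at −0.17 and SMAD4 at 0.0075. With array weights, SES minus BMS had TGFB3 probe set 1 at −0.23. There ZES minus BMS had TGFB2 probe set 1 at −0.024 and SMAD4 at −0.00084. With median centring, ZES minus BMS had TGFB1 probe set 1 at −0.057, TGFB1 probe set 2 at −0.0076, TGFB2 probe set 1 at −0.0034, TGFB2 probe set 2 at −0.0094 and SMAD4 at −0.058. There ZES minus SES had TGFB3 probe set 1 at −0.0065. With quantile normalization, ZES minus BMS had TGFB2 probe set 2 at −0.016. There ZES minus SES had SMAD4 at 0.0091. Without BMS 1 and ZES 2, the arrays of high 28S signal, SES minus BMS had SMAD4 at −0.16. There ZES minus BMS had SMAD4 at −0.18. In that setting ZES minus SES had TGFB1 probe set 2 at 0.045. Leaving out 1 array or 1 pig turned the sign of 18 differences, whose lowest and highest values follow. For SES minus BMS the ranges were SMAD4 at −0.16 to 0.34, TGFB2 probe set 1 at −0.33 to 0.16, TGFB2 probe set 3 at −1.98 to 0.071 and TGFB3 probe set 1 at −0.37 to 0.40. For ZES minus BMS the ranges were SMAD4 at −0.21 to 0.29, TGFB1 probe set 1 at −0.14 to 0.28, TGFB1 probe set 2 at −0.35 to 0.54, TGFB2 probe set 2 at −0.69 to 0.87, TGFB2 probe set 1 at −0.16 to 0.37, TGFB2 probe set 3 at −0.62 to 0.28 and TGFB3 probe set 1 at −0.60 to 0.83. For ZES minus SES the ranges were SMAD3 at −0.76 to 2.48, SMAD4 at −0.23 to 0.13, TGFB1 probe set 2 at −0.78 to 0.12, TGFB2 probe set 1 at −0.047 to 0.46, TGFB2 probe set 3 at −0.22 to 1.84, TGFB3 probe set 1 at −0.64 to 0.79 and TGFBR1 probe set 1 at −0.16 to 0.31. For SMAD3 the SES minus BMS difference was −0.79 with a pseudocount of 32 on the linear signal. Over all probe sets the number called ranged from 0 to 673 for SES against BMS, 0 to 71 for ZES against BMS, 0 to 306 for ZES against SES and 0 to 625 in the F test, against 114, 0, 12 and 58 as reported. The count for SES against BMS was 0 with the spike-in or the GAPDH covariate, neither of which overlapped between those groups. No paired analysis was possible because each pig carried 1 stent type, so that stent types share no animal; the arteries of a pig were compared within it. Signals near background limit the dim TGFB2, TGFB3, TGFBR1 and SMAD3 probe sets.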
